A study of Mus musculus with 12 samples.

Results

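Lymphocyte genes were examined in sorted myeloid cells of the mouse cecum: 25 genes of T cells and natural killer (NK) cells and 7 genes of B and plasma cells, 32 in all. Each gene was represented by the array row that carries its symbol alone. Of the 32 genes, 31 had such a row, 1 row each, out of 19938 genes with a single symbol on the array, and only *Lck*, the kinase next to the T cell receptor, had none. The 31 genes were followed in 12 samples of 2 cell types, RM (the resident macrophages) and dendritic cells (DC) that carry CD11b, from WT mice and from Runx3Δ mice. Runx3Δ mice carry *Runx3* fl/fl alleles and a CD11c-Cre transgene, so that the transcription factor Runx3 is lost in CD11c-expressing cells. The WT mice were labelled *Runx3* +/+. There were 3 WT and 4 Runx3Δ samples of RM, and 2 WT and 3 Runx3Δ samples of CD11b+ DC. Mice were 6 to 8 weeks old, of both sexes, and each sample pooled cells of 3 to 4 mice. Both sorts kept CD45+CD11c+MHCII+CD11b+ cells without Ly6c, with F4/80 present on RM and absent on DC, and neither gate as listed used a T, NK or B cell marker to discard cells. The samples carry litter mate numbers, so RM and DC, or WT and Runx3Δ, that share a number were taken to come from the same litter.

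T cells recognise antigen through a receptor whose signal is carried by the CD3 chains and passed on by kinases and adaptors such as Zap70 and Lat. Cytotoxic T cells and NK cells store granzymes and perforin in granules, a program driven by the transcription factors T-bet (*Tbx21*) and Eomes, and Runx3 is itself best known as a factor of cytotoxic T cells and NK cells. B cells signal through Cd79a and Cd79b, the paired chains below their surface antibody, under the control of Pax5. The intestinal lamina propria holds all of these lymphocytes beside macrophages and DC. Some of the genes are also used by myeloid cells, so a level in a sorted myeloid sample does not name its source.

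All values are log2 intensities as deposited, and the limit that the study's methods set for an expressed gene is 5 on this scale. The median over the rows of an array lay between 5.33 and 5.52, and replicates of a group correlated at r = 0.9786 to 0.991 over all rows. The *Runx3* row measured 9.69 ± 0.19 (SD, n = 3) in WT RM, 9.94 ± 0.16 (SD, n = 4) in Runx3Δ RM, 10.05 ± 0.09 (SD, n = 2) in WT DC and 10.04 ± 0.09 (SD, n = 3) in Runx3Δ DC. It spans more of the gene than the deleted exon, so these values are no check of the deletion. Most cell type markers followed the labels. In WT RM, 12 of 12 macrophage genes were above the DC level, 11 of them with an adjusted p under 0.05. Of 10 conventional DC genes, 9 were below it, all 9 past that threshold. The other 1 was above it by a log2 difference of 0.71, also past that threshold. Macrophage genes were nevertheless at 5 or more in every DC sample, and conventional DC genes in every RM sample.

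Most of the lymphocyte genes reached the methods' limit of 5 in every sample. Of the 31 genes, 19 were at 5 or more in all 12 samples, 11 in some, and *Klrb1c*, which encodes the NK receptor NK1.1, in none (3.19 to 3.92). All 7 B and plasma cell genes were among the 19. Of the 24 measured T and NK genes, 3 to 10 per sample lay under 5. In bulk samples such as these, fewer cells of a type and less RNA per cell cannot be told apart. *Cd3d* was at 5 or more in only 1 of 12 samples and *Cd8b1* in 1, while *Cd3e*, *Cd247*, *Cd5*, *Cd8a*, *Cd28*, *Cd27*, *Il2rb* and *Gzmb* reached 5 in all 12. B and plasma cell genes had their highest group mean in RM without exception, 5 of them in Runx3Δ RM and 2 in WT RM. T and NK genes were divided, with the highest mean in Runx3Δ RM for 12, in Runx3Δ DC for 8, in WT DC for 3 and in WT RM for 1.

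**Figure D1:**
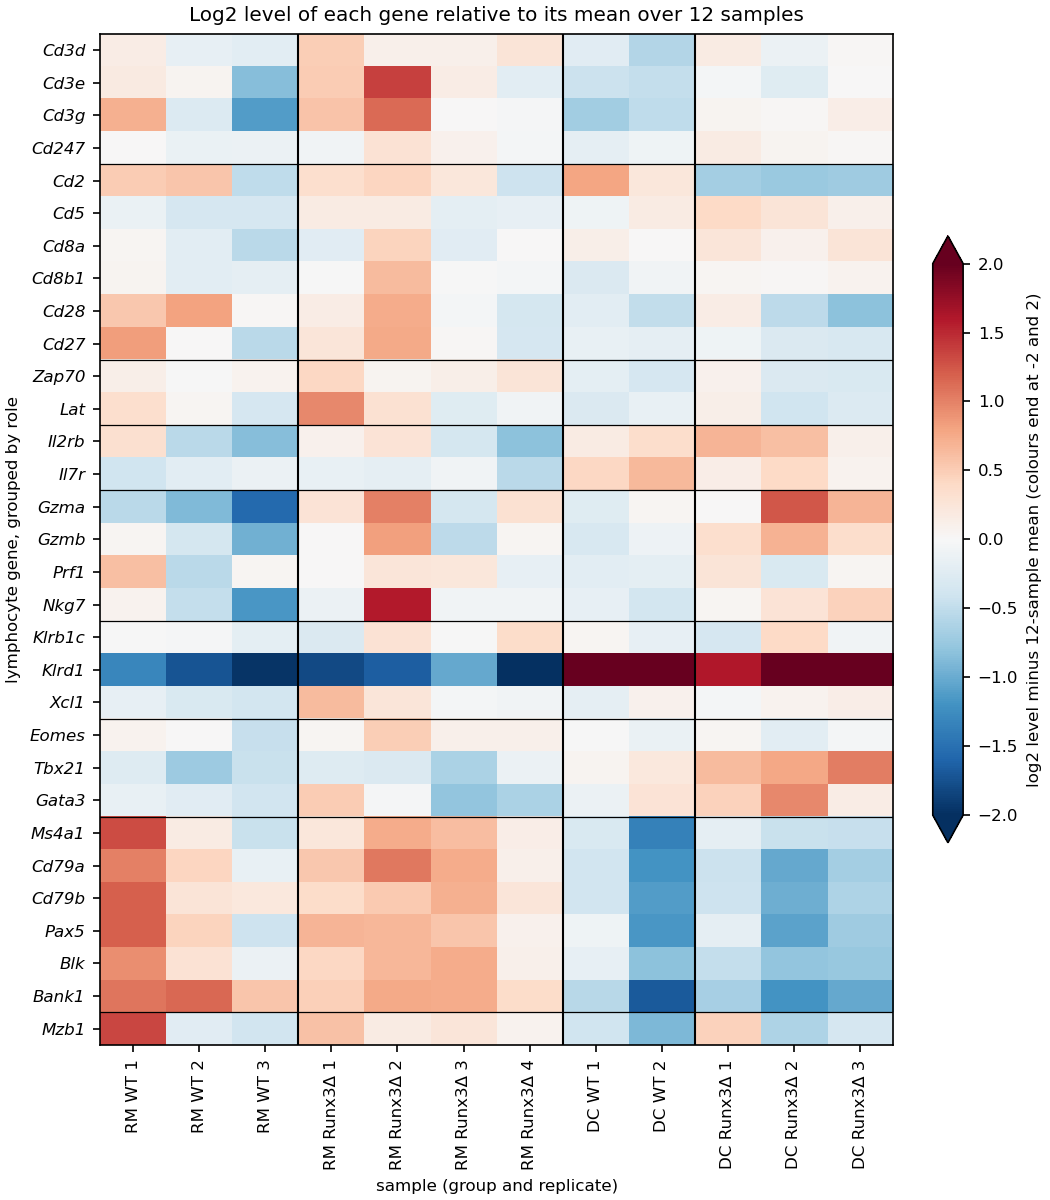
Log2 level of each of the 31 lymphocyte genes (rows, grouped by role, italic symbols) in each of the 12 samples (columns, group and replicate), as the difference from that gene's own mean over the 12 samples. The B and plasma cell genes at the bottom are red in most RM samples and blue in the DC samples, except *Mzb1* in Runx3Δ DC replicate 1 (0.46 above its mean), *Klrd1* stands out in the opposite direction, and the 3 WT RM samples differ among themselves over most rows.

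B cell genes were higher in RM than in CD11b+ DC in both genotypes. In WT samples, *Bank1*, a scaffold of B cell receptor signaling, measured 10.02, 10.10 and 9.50 in RM against 8.39 and 7.27 in DC. Every RM sample lay above both DC samples. The log2 difference was 2.04 (SE 0.30, adjusted p = 0.00201), or 4.12-fold. *Cd79b* measured 9.99, 9.04 and 9.0 in WT RM against 8.40 and 7.68 in WT DC, again with no overlap, a log2 difference of 1.30 (SE 0.31, adjusted p = 0.0302). These 2 were the lymphocyte genes that rose in RM in the WT comparison, in which 3.05% of all rows did so. All 7 B and plasma cell genes had differences above 0, with a median log2 difference of 1.17, where the median over all rows was 0.00.

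The other B cell genes of WT samples gave similar sizes with more spread. *Cd79a* measured 10.55, 9.97 and 9.39 in RM and 9.16 and 8.34 in DC, which did not overlap (1.22, SE 0.36, adjusted p = 0.0835). *Ms4a1*, the gene of the surface protein CD20, measured 10.36, 9.22 and 8.60 in RM and 8.74 and 7.70 in DC, so that the lowest RM sample lay under the higher DC sample (1.17, SE 0.44, adjusted p = 0.178). *Blk*, a kinase of the B cell receptor, measured 8.76, 8.12 and 7.71 in RM and 7.66 and 7.01 in DC (0.86, SE 0.30, adjusted p = 0.139). The groups of *Blk* touched without overlapping. *Pax5*, the regulator of B cell identity, had a difference of 1.04 (SE 0.44, adjusted p = 0.252), and *Mzb1*, which helps antibody-secreting cells to assemble immunoglobulin, one of 0.89 (SE 0.46, adjusted p = 0.372).

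In Runx3Δ samples, 4 B cell genes rose in RM against DC, in a comparison in which 3.73% of all rows did so. *Bank1* measured 9.42, 9.70, 9.69 and 9.32 in RM against 8.28, 7.75 and 7.92 in DC, a log2 difference of 1.55 (SE 0.25, adjusted p = 0.00284). *Blk* measured 8.25, 8.49, 8.57 and 7.93 in RM against 7.36, 7.04 and 7.07 in DC (1.16, SE 0.25, adjusted p = 0.0150). *Cd79a* measured 10.08, 10.59, 10.28 and 9.64 against 9.11, 8.52 and 8.86 (1.32, SE 0.30, adjusted p = 0.0222). For all 3 genes, the lowest RM sample was above the highest DC sample. *Cd79b*, at 9.15, 9.31, 9.50 and 9.03 against 8.38, 7.82 and 8.18, showed the same separation (1.12, SE 0.26, adjusted p = 0.0217). *Ms4a1*, at 9.28, 9.80, 9.67 and 9.19 in RM and 8.88, 8.60 and 8.59 in DC, did not overlap either but did not pass (0.80, SE 0.37, adjusted p = 0.272). *Pax5* (1.15, adjusted p = 0.0952) and *Mzb1* (0.43, adjusted p = 0.643) did not pass, although *Pax5* did with litter as a block (0.0391, with a range from 0.0371 to 0.33 over the alternatives). The median over the 7 genes was 1.15 against 0.02 over all rows.

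The separation of RM from DC also held inside litters. Between RM and DC of the same genotype that shared a litter mate number, all 7 B and plasma cell genes were higher in RM in each of the 5 such pairs. The median difference over the 7 genes was 0.52 and 0.90 in litters 2 and 3 of WT mice, and 0.86, 1.62 and 0.80 in litters 1, 3 and 4 of Runx3Δ mice. *Bank1* was higher by 1.71 and 2.23 in the WT litters and by 1.14, 1.94 and 1.40 in the Runx3Δ litters. The call for *Cd79b* in WT samples ended with litter as a block (adjusted p = 0.0657), with the methods' test (0.0875) and without WT DC replicate 2 (0.281), over a range from 0.00772 to 0.281. In Runx3Δ samples the calls for *Cd79a* and *Cd79b* ended with the methods' test and without RM replicate 2, RM replicate 3, DC replicate 2 or DC replicate 3 (adjusted p at most 0.111), that for *Blk* ended with the methods' test and without DC replicate 2 or 3 (at most 0.0717), and *Bank1* passed in every alternative run for either genotype.

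**Figure D2:**
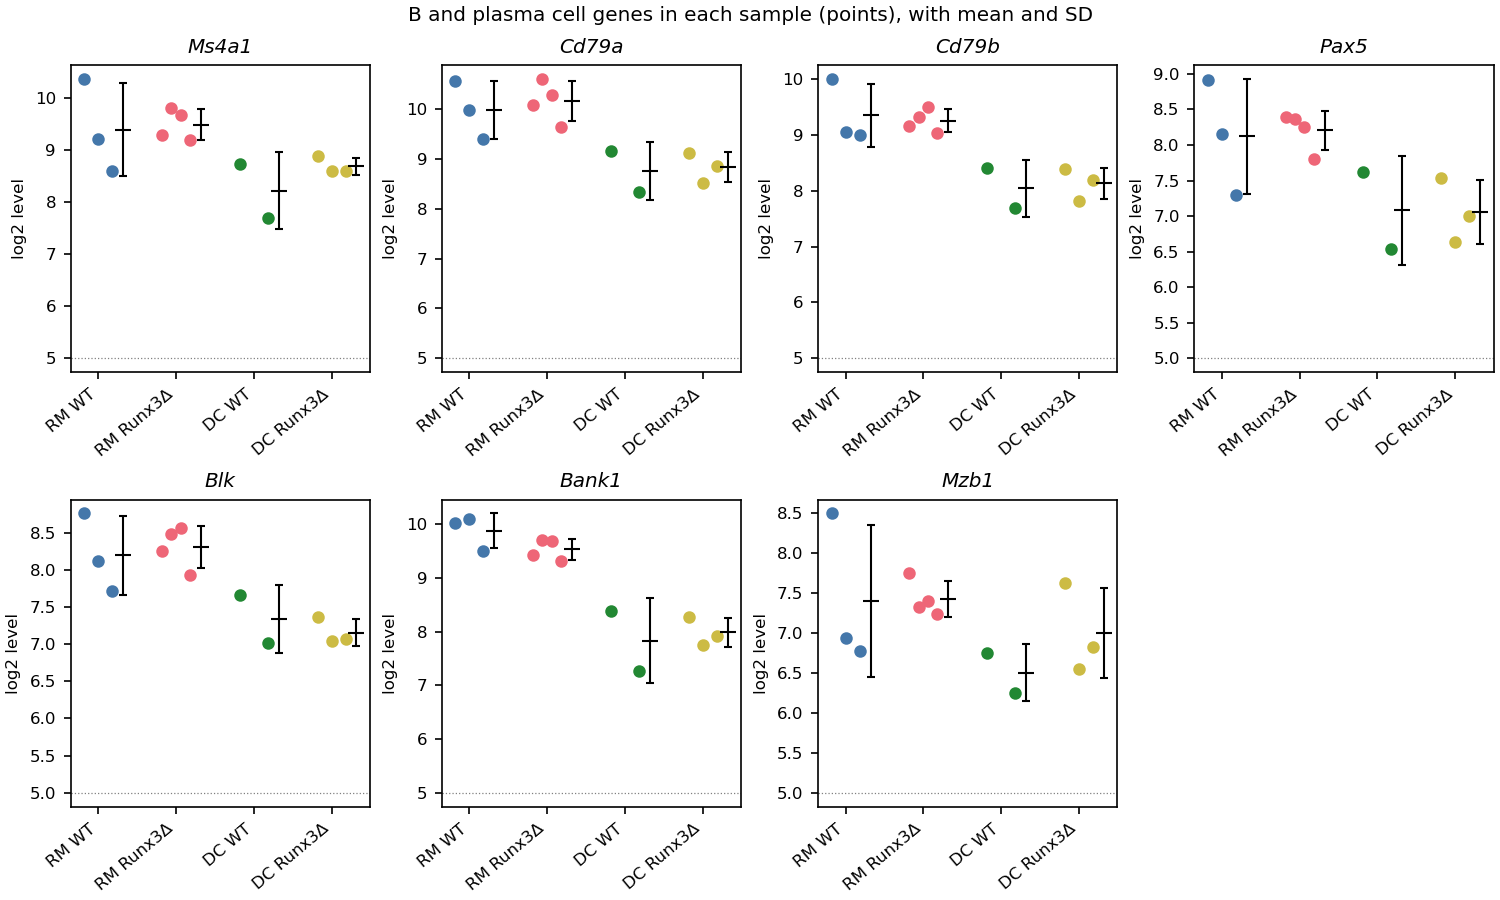
Log2 level (vertical axis) of the 7 B and plasma cell genes in each sample (points) of the 4 groups (horizontal axis), with the group mean and SD in black and the methods' expression limit of 5 as a dotted line. *Bank1* separates the 7 RM samples (9.32 to 10.10) from the 5 DC samples (7.27 to 8.39), whereas *Ms4a1*, *Pax5* and *Mzb1* overlap.

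Markers of plasmacytoid DC, a cell type that shares part of its gene program with B cells, moved with the B cell genes in WT samples. Of 9 such markers, 8 were higher in WT RM than in WT DC, 6 of them with an adjusted p under 0.05. Their summed log2 level ran from 73.6 to 76.3 in WT RM, from 67.5 to 68.5 in WT DC, from 71.3 to 73.2 in Runx3Δ RM and from 69.4 to 71.3 in Runx3Δ DC. All 9 were at 5 or more in every sample except 3 of Runx3Δ RM, in which 8 were. In Runx3Δ samples 2 were higher and 1 lower in RM after adjustment. The part of plasmacytoid DC in the B cell gene values was not tested. *Spib* was listed both among the plasmacytoid DC markers and among the other B and plasma cell genes. *Irf4* was listed both among the latter and among the conventional DC genes. Among 22 other measured B and plasma cell genes, 19 were above the DC level in RM in each genotype. After adjustment, 2 rose and 1 fell in WT RM, and 7 rose and 1 fell in Runx3Δ RM. The gene that fell in both was *Irf4*, a factor of plasma cells that conventional DC also use. For either list, the shares of all rows that passed were 3.05% higher and 3.02% lower in WT RM. In Runx3Δ RM they were 3.73% higher and 4.12% lower.

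B cell genes differed between replicates as a block. WT RM replicate 1 had the highest value of its group for 6 of 7 B and plasma cell genes and replicate 3 the lowest for 7 of 7. Runx3Δ RM replicate 4 was the lowest of its group for 7 of 7, WT DC replicate 1 was above replicate 2 for 7 of 7, and Runx3Δ DC replicate 1 was the highest for 7 of 7. Averaged over the 7 genes, the deviation from the 12-sample mean was 1.15, 0.36 and -0.11 in the WT RM replicates and 0.47, 0.65, 0.62 and 0.16 in the Runx3Δ RM replicates. It was -0.33 and -1.18 in WT DC and -0.27, -0.87 and -0.65 in Runx3Δ DC. The lowest WT RM, WT DC and Runx3Δ DC samples all carried litter mate number 3, while litter 3 was the lowest of Runx3Δ RM for none of the 7 genes.

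Against this spread, B cell genes showed no genotype difference past the threshold in either cell type. In RM, 5 of 7 were above 0 and 2 below, with a median log2 difference of 0.09 and a range from -0.34 (*Bank1*, SE 0.25, 95% interval -0.89 to 0.21) to 0.17 (*Cd79a*). The direction differed between litters: Runx3Δ RM was above WT RM for 0 of 7 genes in litter 1 (median -0.60), for 6 of 7 in litter 2 (0.37) and for 7 of 7 in litter 3 (0.85). In DC the 7 differences ran from -0.18 (*Blk*) to 0.49 (*Mzb1*), with a median of 0.09. In the 1 litter with DC of both genotypes, number 3, Runx3Δ was higher for 7 of 7 genes with a median of 0.18.

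T and NK genes did not separate RM from DC as a group. In WT samples 10 of 24 were above 0 and 14 below, with a median of -0.14, and in Runx3Δ samples 14 were above and 10 below, with a median of 0.09. Single genes did separate them. *Klrd1* encodes CD94, which pairs with NKG2 proteins to form receptors of NK cells and cytotoxic T cells. It measured 5.77, 5.34 and 5.10 in WT RM against 9.36 and 9.76 in WT DC, and 5.27, 5.42, 6.05 and 5.08 in Runx3Δ RM against 8.67, 9.81 and 9.19 in Runx3Δ DC. No RM sample came within 2 log2 units of a DC sample. Against DC, *Klrd1* was lower in RM by a log2 difference of -4.16 in WT (SE 0.34, adjusted p = 6.4e-05, 17.8-fold) and of -3.77 in Runx3Δ samples (SE 0.29, adjusted p = 3e-05, 13.6-fold). The difference lay between -3.40 and -4.66 in each of the 5 within-litter pairs.

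*Il7r*, the chain shared by the receptors for IL-7 and TSLP, was the other T and NK gene that fell in WT RM, in a comparison in which 3.02% of all rows did so. It measured 9.75, 9.94 and 10.03 in RM and 10.56 and 10.79 in DC without overlap, a log2 difference of -0.77 (SE 0.16, adjusted p = 0.0143). In Runx3Δ samples it measured 9.99, 9.97, 10.07 and 9.61 in RM and 10.27, 10.54 and 10.22 in DC, a difference of -0.43 that did not pass (adjusted p = 0.0754) but did with litter as a block (0.0241, with a range from 0.0241 to 0.297 over the alternatives). Without WT DC replicate 2 the WT call ended (adjusted p = 0.146, with a range from 0.00389 to 0.146 over the alternatives), and the count of lymphocyte genes past the threshold went from 4 to 2.

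*Tbx21* fell with *Klrd1* in Runx3Δ RM against Runx3Δ DC, where 4.12% of all rows fell. It measured 5.79, 5.76, 5.41 and 5.93 in RM and 6.68, 6.82 and 7.06 in DC, a log2 difference of -1.13 (SE 0.15, adjusted p = 0.000843). In WT samples it measured 5.79, 5.32 and 5.60 in RM and 6.10 and 6.26 in DC, which did not overlap (-0.61, SE 0.18, adjusted p = 0.0795). The count of lymphocyte genes past the threshold in this genotype went from 6 to 3 with the methods' test or without Runx3Δ DC replicate 2 or 3, and in each of these cases *Klrd1*, *Tbx21* and *Bank1* were left. Over the 31 genes, the difference between RM and DC had the same sign in WT and Runx3Δ samples, which share no array, for 25 (80.6%), against 70.7% of all 19938 genes.

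**Figure D3:**
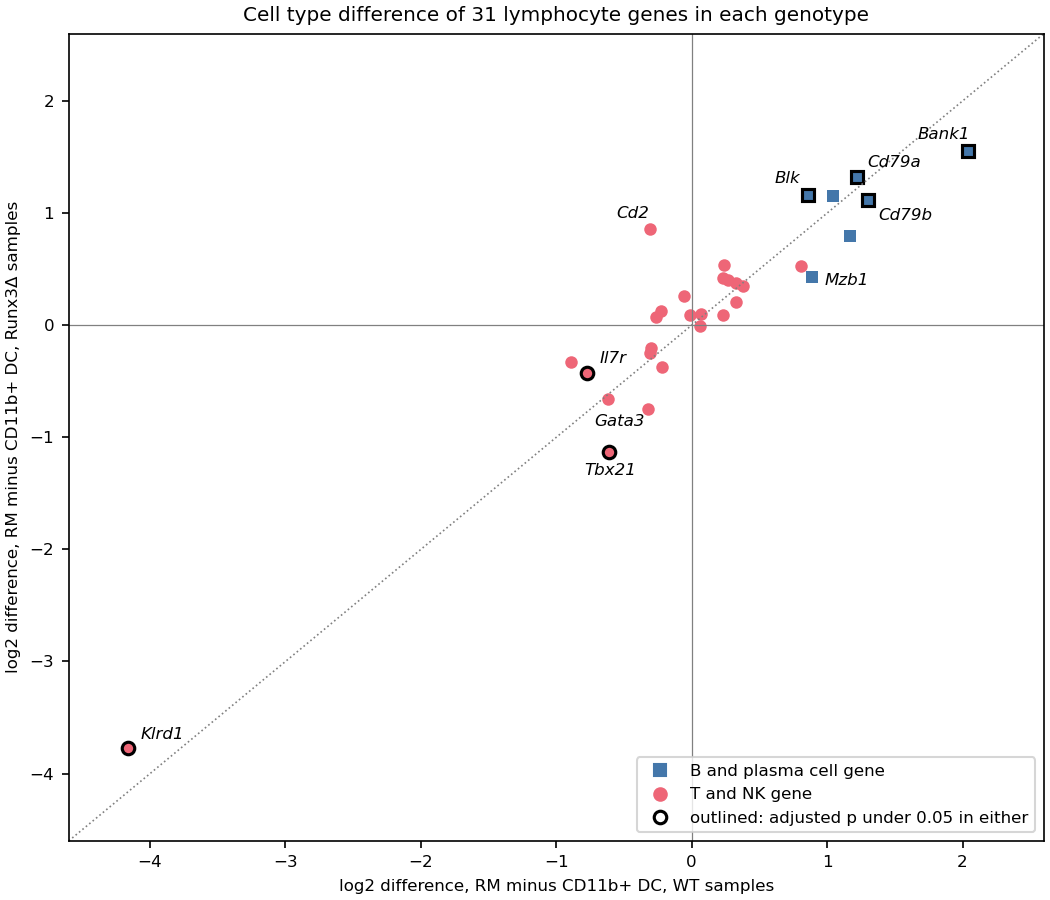
Log2 difference between RM and CD11b+ DC of the 31 lymphocyte genes in WT samples (horizontal axis) and in Runx3Δ samples (vertical axis), with B and plasma cell genes as blue squares, T and NK genes as red circles, black outlines for an adjusted p under 0.05 in either genotype, and a dotted line where both differences are equal. All 7 B and plasma cell genes lie at the upper right, while *Klrd1*, at -4.16 and -3.77, lies far from every other gene.

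The loss of Runx3 moved no lymphocyte gene past the threshold. In RM, limma gave 0 of 31 genes with an adjusted p under 0.05, where 0.0141% of all rows had one, and 3 genes with an unadjusted p under 0.05, as had 7.96% of all rows. In DC it gave 0 of 31, where the share of all rows was 0%, and again 3 at the unadjusted limit, reached by 6.74% of all rows. The methods' test also gave 0 after adjustment in either cell type, with 2 genes in RM (7.97% of all rows) and 3 in DC (6.84%) at the unadjusted limit. Differences leaned upward in Runx3Δ samples: 27 of 31 genes were above 0 in RM, with a median of 0.15 against 0.03 over all rows, and 23 of 31 in DC, with a median of 0.16 against 0.01. Of all 35556 rows, 20046 were above 0 in RM and 18558 in DC. In RM of litter 1, however, 9 of 31 were above 0, with a median of -0.17, while 28 of 31 were in each of litters 2 and 3. The RM median was 0.39 without WT replicate 1, 0.24 without Runx3Δ replicate 4, and 0.07 without WT replicate 3 or Runx3Δ replicate 2. Groups without overlap, higher in Runx3Δ, were found in RM for 2 of 31 genes (4.12% of all rows) and in DC for 8 of 31 (13.1% of all rows). Lower in Runx3Δ without overlap were 0 genes in RM (3.43% of all rows) and 2 in DC (12.6% of all rows).

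**Figure D4:**
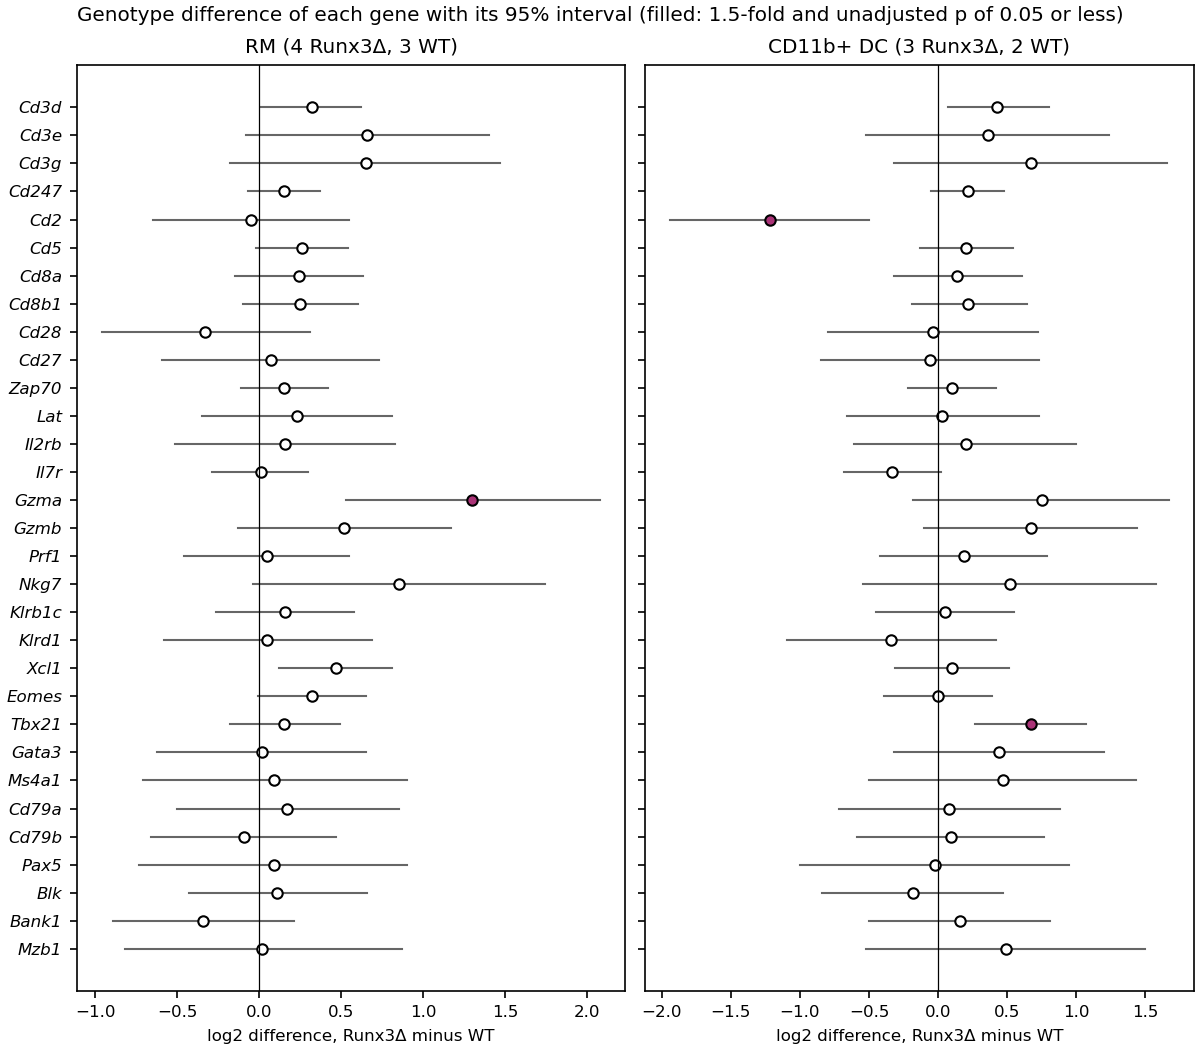
Log2 difference between Runx3Δ and WT samples (horizontal axes) of the 31 lymphocyte genes (vertical axis, ordered by role) in RM (left) and CD11b+ DC (right), with 95% intervals from the limma fit as lines and filled points for genes at the methods' limits (at least 1.5-fold, unadjusted p at most 0.05). *Gzma* is filled in RM and *Cd2* and *Tbx21* in DC, and most other intervals cross 0.

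The CD3 chains of the T cell receptor all had higher group means in Runx3Δ samples of either cell type. *Cd3e* measured 7.47, 7.35 and 6.45 in WT RM and 7.80, 8.66, 7.44 and 7.09 in Runx3Δ RM, which overlapped (0.66, SE 0.33, adjusted p = 0.672). *Cd3g* measured 6.42, 5.43 and 4.60 in WT RM and 6.28, 6.85, 5.72 and 5.68 in Runx3Δ RM (0.65, SE 0.38, adjusted p = 0.719). *Cd3d* stayed under 5 in all but 1 of these samples, at 4.74, 4.43 and 4.38 in WT RM and 5.09, 4.70, 4.69 and 4.85 in Runx3Δ RM (0.32, SE 0.14, adjusted p = 0.613). Over the 4 chains, *Cd247* included, the median log2 difference was 0.48 in RM, and all 4 differences were above 0. Inside litters this did not hold for each chain. In RM of litter 1 *Cd3g* (-0.14) and *Cd247* (-0.08) were below 0, while all 4 were above 0 in litters 2 and 3.

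In DC the 4 chains did not overlap between genotypes, in a comparison in which 13.1% of all rows were so separated. *Cd3e* measured 6.87 and 6.82 in WT DC and 7.25, 7.05 and 7.31 in Runx3Δ DC. *Cd3g* measured 5.01 and 5.20 in WT DC and 5.77, 5.73 and 5.84 in Runx3Δ DC, and *Cd3d* 4.36 and 4.01 against 4.76, 4.48 and 4.61. In each case all 3 Runx3Δ samples lay above both WT samples. The log2 differences were 0.36 for *Cd3e* (SE 0.40), 0.67 for *Cd3g* (SE 0.45), 0.43 for *Cd3d* (SE 0.17) and 0.22 for *Cd247* (SE 0.12), and none had an adjusted p below 0.651. The co-receptor gene *Cd8a* measured 6.15, 5.91 and 5.58 in WT RM, 5.89, 6.57, 5.89 and 6.13 in Runx3Δ RM, 6.23 and 6.12 in WT DC and 6.36, 6.21 and 6.38 in Runx3Δ DC. Its genotypes overlapped in either cell type, with differences of 0.24 (SE 0.18) in RM and 0.14 (SE 0.21) in DC.

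Genes of the cytotoxic granule gave the largest group median of the T and NK roles in RM, a log2 difference of 0.68 over *Gzma*, *Gzmb*, *Prf1* and *Nkg7*, and 0.60 in DC, with all 4 above 0 in either cell type. Inside litters this did not hold for each gene: in RM of litter 1 *Gzmb* (-0.02), *Nkg7* (-0.19) and *Prf1* (-0.58) were below 0, as was *Prf1* in DC of litter 3 (-0.12), while all 4 were above 0 in RM of litters 2 and 3. Runx3 binds the letters TGTGGT and TGCGGT, which were counted in promoters of the 32 genes as a description only. Promoter windows of 300 bases, from 250 bases before the start of transcription to 50 after it, were listed for 23 of the 32 genes, and were not listed for *Klrd1*, *Cd2*, *Cd28*, *Cd8b1*, *Il2rb*, *Ms4a1*, *Cd79b*, *Blk* and *Mzb1*. TGTGGT stood on either strand in 10 of their 26 windows (38.5%), against 16.8% of all 32851 windows, and either motif in 12 (46.2%), against 22.4%. *Zap70* and *Lck* had more than 1 window each, and *Lck* was not measured on the array. A link of these letters to the genotype differences was not tested. The windows of *Gzma*, *Gzmb*, *Prf1* and *Nkg7* each held TGTGGT. The RefSeq windows (GRCm38.p6) of *Gzma* (chr13:113100932-113101231, minus strand), *Gzmb* (chr14:56262285-56262584, minus strand) and *Nkg7* (chr7:43436888-43437187, plus strand), the 3 granule genes with the larger differences, are printed 5′ to 3′ along the gene with the match in capitals, read as ACCACA where it lies on the opposite strand. The matches began 50 bases before the start in *Gzma*, 93 and 34 bases before it in *Gzmb* and 83 bases before it in *Nkg7*, and they describe the letters of these windows, with no measure of binding.
Gzma: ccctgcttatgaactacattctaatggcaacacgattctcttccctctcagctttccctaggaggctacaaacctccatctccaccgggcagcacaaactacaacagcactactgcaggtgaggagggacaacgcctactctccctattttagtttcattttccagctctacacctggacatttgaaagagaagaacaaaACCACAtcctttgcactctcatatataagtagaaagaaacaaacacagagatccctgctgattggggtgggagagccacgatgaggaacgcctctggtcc
Gzmb: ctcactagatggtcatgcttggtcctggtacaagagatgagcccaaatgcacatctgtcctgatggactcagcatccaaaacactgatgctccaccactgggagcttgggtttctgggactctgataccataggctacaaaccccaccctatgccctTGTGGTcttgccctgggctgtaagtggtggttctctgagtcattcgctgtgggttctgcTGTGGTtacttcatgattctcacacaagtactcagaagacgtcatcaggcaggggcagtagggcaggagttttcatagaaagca
Nkg7: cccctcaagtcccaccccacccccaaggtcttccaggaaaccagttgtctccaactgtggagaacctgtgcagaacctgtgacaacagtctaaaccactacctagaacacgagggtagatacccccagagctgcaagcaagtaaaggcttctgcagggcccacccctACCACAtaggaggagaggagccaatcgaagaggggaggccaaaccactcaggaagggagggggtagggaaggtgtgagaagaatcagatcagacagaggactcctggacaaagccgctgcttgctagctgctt

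*Gzma*, which encodes the protease granzyme A, was the lymphocyte gene that met the methods' limits in RM, at least 1.5-fold with an unadjusted p of at most 0.05, 1 of 31 on the higher side, where 0.728% of all rows met them. It measured 4.53, 4.19 and 3.52 in WT RM and 5.35, 6.08, 4.72 and 5.38 in Runx3Δ RM. All 4 Runx3Δ samples lay above the 3 WT samples, of which none reached 5. The log2 difference was 1.30 (SE 0.35, 95% interval 0.53 to 2.08), or 2.47-fold, with an adjusted p of 0.344. Inside litters the difference was 0.82, 1.90 and 1.20 in litters 1, 2 and 3. In DC *Gzma* measured 4.83 and 5.11 in WT and 5.08, 6.31 and 5.75 in Runx3Δ samples, which overlapped (0.75, SE 0.42, adjusted p = 0.790). No lymphocyte gene met the limits on the lower side in RM (0.731% of all rows).

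*Gzmb*, the gene of granzyme B, measured 6.64, 6.25 and 5.64 in WT RM and 6.62, 7.43, 6.08 and 6.64 in Runx3Δ RM, with overlap. In DC it measured 6.28 and 6.50 in WT and 6.94, 7.30 and 6.95 in Runx3Δ samples, without overlap (0.67, SE 0.35, adjusted p = 0.777). *Nkg7*, a protein of granule membranes, measured 5.64, 5.09 and 4.41 in WT RM and 5.45, 7.15, 5.49 and 5.49 in Runx3Δ RM, where replicate 2 stood alone. In DC it measured 5.41 and 5.20 against 5.60, 5.84 and 6.03 (0.52, SE 0.48, adjusted p = 0.906). *Prf1*, which encodes the pore-forming perforin, differed by 0.05 (SE 0.23) in RM and 0.19 (SE 0.27) in DC.

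**Figure D5:**
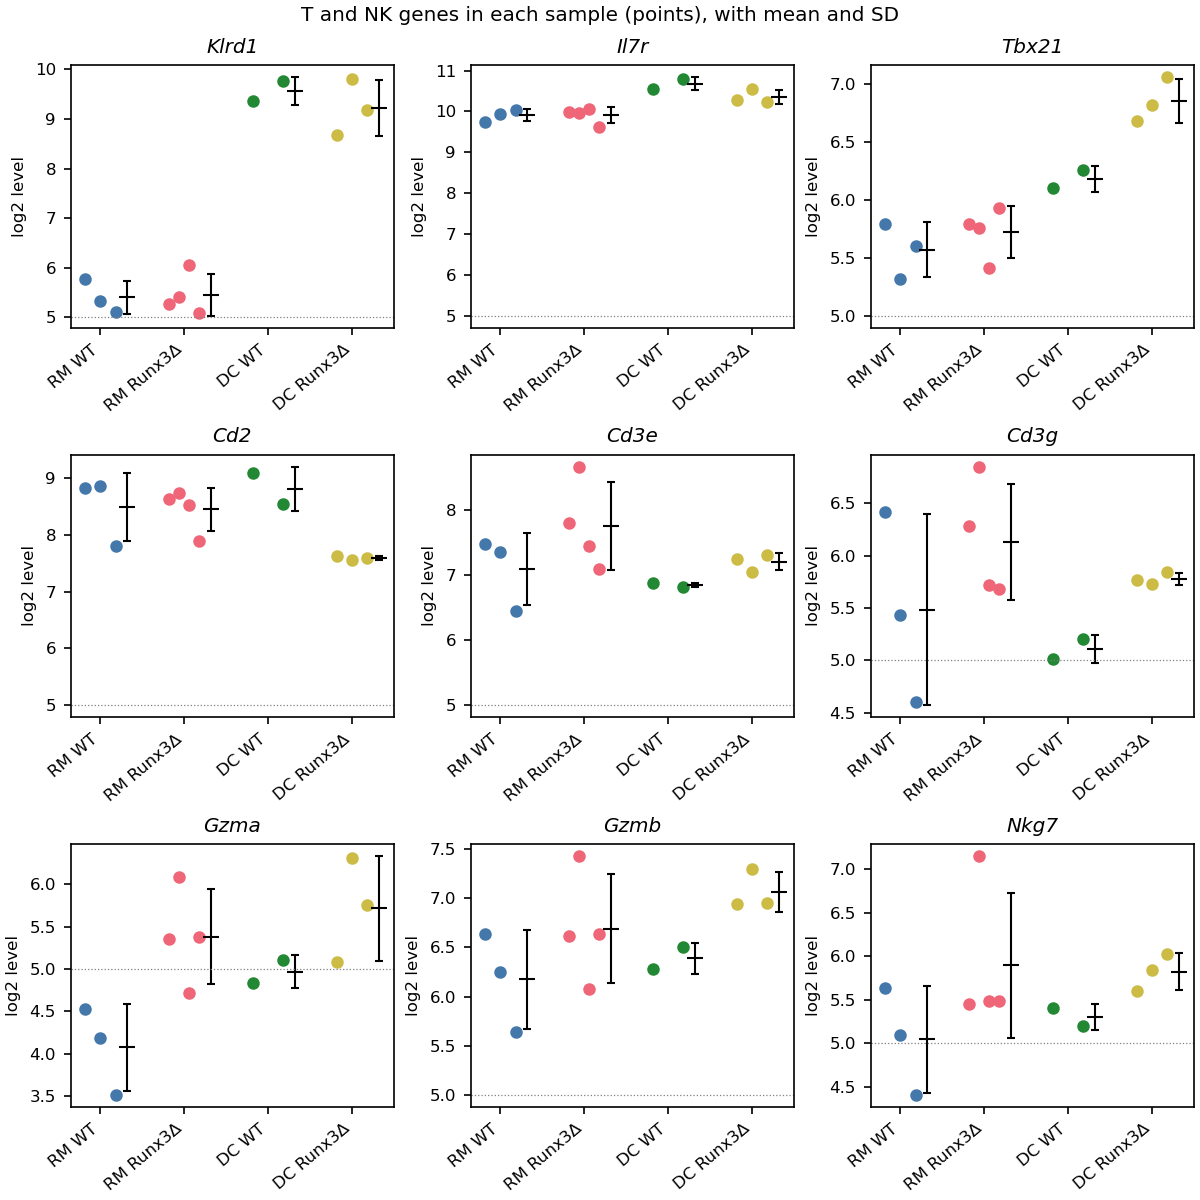
Log2 level (vertical axis) of 9 T and NK genes in each sample (points) of the 4 groups (horizontal axis), with the group mean and SD in black and the methods' expression limit of 5 as a dotted line. *Klrd1* splits RM from DC, *Cd2* is lowest in the 3 Runx3Δ DC samples (7.56 to 7.63), and *Gzma* is lowest in the WT RM samples.

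In CD11b+ DC 2 genes met the methods' limits. *Cd2*, an adhesion receptor of T and NK cells that some DC also carry, measured 9.09 and 8.54 in WT DC and 7.63, 7.56 and 7.59 in Runx3Δ DC. The Runx3Δ samples lay close together and all below the WT samples. The log2 difference was -1.22 (SE 0.33, 95% interval -1.94 to -0.50, adjusted p = 0.446), or 2.32-fold, and *Cd2* was the only one of 31 genes on the lower side, where 1.5% of all rows met the limits. In litter 3 the difference was -0.97. In RM *Cd2* measured 8.82, 8.87 and 7.80 in WT and 8.64, 8.74, 8.53 and 7.89 in Runx3Δ samples, which overlapped, with a difference of -0.05 (SE 0.27).

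*Tbx21* was the gene on the higher side in DC, where 0.633% of all rows met the limits. Its 3 Runx3Δ samples, given above, exceeded both WT samples by a log2 difference of 0.67 (SE 0.18, 95% interval 0.27 to 1.07, adjusted p = 0.447), or 1.59-fold. In litter 3 the difference was 0.56, and in RM the genotypes overlapped, with a difference of 0.15. The number of genes at the limits in RM went from 1 to 3 with litter as a block, which added *Cd3e* and *Nkg7*, and in DC from 2 to 1, which left *Cd2*. It was 5 in RM without WT replicate 1, with *Cd3e*, *Cd3g*, *Gzma*, *Gzmb* and *Nkg7*, and 4 in DC without WT replicate 1, with *Cd3d*, *Cd2*, *Tbx21* and *Bank1*.

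The genotype difference was compared between RM and DC by an interaction term. Of 31 lymphocyte genes 0 had an adjusted p under 0.05, as did 0% of all rows, and 2 had an unadjusted p under 0.05, as did 3.91% of all rows. These were *Cd2*, whose log2 difference was greater in RM than in DC by 1.17 (SE 0.43, 95% interval 0.23 to 2.11), and *Tbx21*, for which the RM difference minus the DC difference was -0.52 (SE 0.23). The median over the 31 genes was 0.06.

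The remaining T and NK genes had no genotype difference at the methods' limits in either cell type. *Xcl1*, the chemokine that attracts cross-presenting DC, measured 4.70, 4.56 and 4.50 in WT RM and 5.49, 5.10, 4.82 and 4.80 in Runx3Δ RM. These groups did not overlap (0.47, SE 0.16, adjusted p = 0.494), and *Gzma* and *Xcl1* were the 2 genes so separated in RM. The costimulatory receptors *Cd28* and *Cd27* differed between genotypes by -0.33 and 0.07 in RM and by -0.04 and -0.06 in DC. Between WT RM and WT DC *Cd28* differed by 0.81 (SE 0.35, adjusted p = 0.253), and passed with litter as a block alone among the alternatives run (0.0311, range to 0.638). The signaling genes *Zap70* and *Lat* differed by 0.15 and 0.23 in RM and by 0.10 and 0.03 in DC. *Gata3*, a factor of type 2 T cells and innate lymphoid cells, had the same mean within 0.02 in RM and a difference of 0.44 (SE 0.35) in DC, *Eomes* one of 0.32 in RM and 0.00 in DC, and *Il2rb*, the chain shared by the receptors for IL-2 and IL-15, 0.16 and 0.20. In RM of litters 1, 2 and 3 the *Gata3* difference was 0.65, 0.21 and -0.41. Between RM and DC, *Gata3* differed by -0.32 in WT and -0.75 in Runx3Δ samples, and *Il2rb* by -0.62 and -0.66. None of these passed the adjusted threshold.

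As for B cell genes, T and NK genes differed between RM replicates. WT RM replicate 1 had the highest value of its group for 21 of 24 genes and replicate 3 the lowest for 17 of 24, and the deviation averaged over the 24 genes was 0.07, -0.25 and -0.54 in replicates 1, 2 and 3. In Runx3Δ RM replicate 2 was the highest for 14 of 24 genes, and the average deviation was 0.10, 0.39, -0.15 and -0.19. Runx3Δ RM was above WT RM for 9 of 24 genes in litter 1 (median -0.05), 22 of 24 in litter 2 (0.49) and 21 of 24 in litter 3 (0.32). The summed log2 level of the 24 genes ran from 130.4 to 145.2 in WT RM, 138.8 to 152.8 in Runx3Δ RM, 143.4 to 144.3 in WT DC and 146.7 to 148.9 in Runx3Δ DC.

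Markers of other cells and of the sorted cells themselves were set beside these values. In RM, 11 of 12 macrophage genes were below 0 in Runx3Δ against WT samples (median -0.11), as were 8 of 9 plasmacytoid DC genes (median -0.30) and 5 of 10 conventional DC genes. In the same comparison, 12 of 14 granulocyte and mast cell genes and 9 of 14 epithelial genes were above 0, as were 20046 of all 35556 rows. None of the genes of these lists had an adjusted p under 0.05 in limma, and 1 macrophage, 4 plasmacytoid DC, 3 conventional DC, 3 granulocyte and mast cell and 2 epithelial genes reached the unadjusted limit (7.96% of all rows). The summed log2 level of the granulocyte and mast cell genes ran from 60.5 to 62.6 in WT RM and from 63.8 to 68.6 in Runx3Δ RM, and 9 to 13 of the 14 lay under 5 in any RM sample. That of the epithelial genes ran from 79.4 to 86.3 and from 78 to 87.6. In DC, 12 of 14 epithelial and 9 of 14 granulocyte and mast cell genes were above 0, where 18558 of all 35556 rows were. Above 0 were also 6 of 9 plasmacytoid DC genes (median 0.27), unlike in RM. In DC 7 of 10 conventional DC genes and 6 of 12 macrophage genes were below 0. At the unadjusted limit in limma (6.74% of all rows) were 1 macrophage, 2 plasmacytoid DC, 4 conventional DC, 2 granulocyte and mast cell and 3 epithelial genes. The part of these cells in the lymphocyte gene values was not tested.

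Other lymphocyte genes, 60 measured of 66 listed, were read for the same comparisons. In RM, 33 of 38 other T, NK and innate lymphoid genes were above 0 in Runx3Δ samples, with a median of 0.12, and 6 of 22 other B and plasma cell genes, with a median of -0.08. In DC the counts were 25 of 38 (0.08) and 14 of 22 (0.06). Of all 35556 rows, 20046 were above 0 in RM and 18558 in DC. None of the other lymphocyte genes had an adjusted p under 0.05 in limma, with 4 and 2 at the unadjusted limit in RM (7.96% of all rows) and 5 and 1 in DC (6.74%). Of these genes, 3 met the methods' limits in RM, all on the higher side (0.728% of all rows), and 4 in DC, 1 higher (0.633%) and 3 lower (1.5%). *Ifng*, the gene of interferon-γ, averaged 4.72 ± 0.14 (SD) in the 3 WT and 5.42 ± 0.53 in the 4 Runx3Δ samples. *Il12rb2*, an IL-12 receptor chain, averaged 5.45 ± 0.35 and 6.05 ± 0.29. *Sdc1*, which encodes the plasma cell marker CD138, averaged 7.76 ± 0.32 and 9.17 ± 0.32, a log2 difference of 1.40 (SE 0.22, adjusted p = 0.0847). *Mzb1*, the plasma cell gene of the 31, differed by 0.02 (SE 0.38) in the same samples. In DC, *Cd226*, an activating receptor of T and NK cells, averaged 8.18 ± 0.19 (SD) in the 2 WT and 6.56 ± 0.52 in the 3 Runx3Δ samples (-1.62, SE 0.49, adjusted p = 0.516). *Irf4* averaged 10.64 ± 0.21 and 9.98 ± 0.07 (-0.66, SE 0.17, adjusted p = 0.427), and *Gzmk*, a further granzyme that was short of 1.5-fold, 4.08 ± 0.01 and 4.50 ± 0.10 (0.42, SE 0.15, adjusted p = 0.592). The other 2 genes at the limits in DC, named after their values were seen, were the NK receptor gene *Klrg1* (0.75, SE 0.27, adjusted p = 0.629) and *Il18rap*, an IL-18 receptor chain (-0.67, SE 0.26, adjusted p = 0.648).

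Between RM and DC, 2 of the 38 other T, NK and innate lymphoid genes rose and 5 fell in WT RM, and 2 rose and 4 fell in Runx3Δ RM. Of all rows, 3.05% rose and 3.02% fell in WT RM, and 3.73% rose and 4.12% fell in Runx3Δ RM. *Cd7* and *Klrk1*, picked after their values were seen because they encode surface proteins of NK cells as *Klrd1* does, fell in RM as it did. *Cd7* averaged 6.72 ± 0.41 (SD) in the 3 WT RM and 10.15 ± 0.39 in the 2 WT DC samples (adjusted p = 4.87e-05). *Klrk1*, the gene of NKG2D, averaged 6.65 ± 0.20 and 9.41 ± 0.30 (adjusted p = 0.0021). In limma, *Cd226* (-2.42, adjusted p = 0.0128), *Il18rap* (-2.45, adjusted p = 0.000241) and *Il12rb2* (-1.52, adjusted p = 0.00432) fell in WT RM as well. In Runx3Δ RM *Cd226* did not pass (-0.66, adjusted p = 0.454), while *Cd7* (-3.05), *Il18rap* (-1.73) and *Il12rb2* (-1.06) did. *Klrb1c*, by contrast, was under 5 in every DC sample, and of the 24 T and NK genes 6 to 8 lay under 5 in each DC sample. The NK cell genes *Ncr1* and *Cd160* of the longer list were also under 5 in every sample. *Ncr1* averaged 3.46 in WT RM and 3.59 in WT DC, and *Cd160* 3.92 and 3.79. *Cd4* was among the genes that rose, at 11.56 in WT RM and 8.93 in WT DC (adjusted p = 0.000194 in limma).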

How the data were processed

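RNA of sorted cecal RM and CD11b+ DC was hybridised to 12 Affymetrix arrays. The authors deposited log2 intensities after RMA and GC correction in Partek; the submitters' processing notes name build mm9. The platform annotation is that of a gene-level array, the methods name an exon array, and rows were named by the former: of 35556 rows 21789 carry 1 symbol, 1621 several and 12146 none. Litter mate numbers were taken from the labels, and after removal of group means 13 pairs of samples with 1 number correlated at a median of 0.0958 against -0.0347 for 40 pairs with different numbers. All rows were fitted as 4 groups by lmFit and eBayes of limma (version 3.58.1, R 4.3.3), without litter as in the methods. Benjamini-Hochberg adjustment ran over all rows, and an adjusted p under 0.05 was the threshold. Replicates are pools of mice, and their number limits the precision. A gene was given with its value in every sample if it passed in any comparison, met the methods' limits (1.5-fold, unadjusted p of 0.05) between genotypes, or was a defining T or B cell marker; 6 genes of the longer list were named by smallest p. Genes and lists were chosen with earlier results of these data known. The fit was tested on simulated data. Alternatives were litter as a block, the methods' test without moderation, 1 cell type alone, a filter at a level of 5, quantile normalization, median centring, the mean of a gene's rows, rows with 1 symbol only, and the omission of each sample. Plots used matplotlib 3.10.9 under Python 3.11.15.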

Additional observations from a re-analysis of the deposited data

Results flagged for a closer look

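In Runx3Δ RM, replicate 2 lay far above the other 3 samples for 3 T and NK genes. *Nkg7* measured 7.15 there, with the next sample at 5.49. *Cd8b1* measured 5.43, with the next at 4.79, and *Eomes*, a factor of cytotoxic lymphocytes, 5.43, with the next at 5.05. The group of 4 samples was examined for each of the 31 genes, and chance alone marks about 1 in 20 such groups. Replicate 2 was also the highest of its group for 14 of 24 T and NK genes.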

How the results depend on the processing

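Each single-gene difference that was recomputed kept its sign in every alternative, and the median differences over the 31 genes ran from 0.07 to 0.39 in RM and from 0.10 to 0.23 in CD11b+ DC (Runx3Δ minus WT). No alternative gave any of the 31 genes a genotype difference with an adjusted p under 0.05. With litter mate number as a replicate block, 3 genes met the methods' limits in RM (1 without it) and 1 in DC (2 without it). A fit on the arrays of 1 cell type alone gave 4 in DC. The mean of a gene's rows, or rows with 1 symbol only, gave 2 in RM and 10 genes past the adjusted threshold between Runx3Δ RM and DC (6 in the fit reported), the latter with fewer rows to adjust over. The methods' test gave 3 there. Leaving out 1 sample at a time gave 1 to 5 genes at the limits in RM and 1 to 4 in DC, and 2 to 5 past the adjusted threshold between RM and DC in WT and 3 to 7 in Runx3Δ samples. The lowest of these came without WT DC replicate 2, and without Runx3Δ DC replicate 2 or 3. Where a WT DC sample was left out, the remaining one was assumed to vary like the other groups. After adjustment the block ended the call of *Cd79b* in WT, added *Cd28* in WT and *Il7r* and *Pax5* in Runx3Δ samples (8 genes there), and changed no other call. Why the counts otherwise differ was not tested. *Gzma*, *Cd3d*, *Xcl1*, *Klrb1c*, *Cd8b1*, *Eomes*, *Zap70*, *Ifng* and *Gzmk* lie near or under the methods' expression limit of 5, where signal over background limits a fold.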
